A study of Mus musculus with 3 samples.

Results

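SR proteins and heterogeneous nuclear ribonucleoproteins (hnRNPs) are the main families of RNA-binding proteins that decide which splice sites are used. In these data they were examined with the CLK kinases and the U2AF splice-site factors. The rule for members uses names and annotation and no measured value, although the rule itself was set with earlier results of these data known. It takes genes with at least 1 transcript annotated as protein coding whose symbol is that of an SR protein with an Srsf name, an Hnrnp gene, Tra2a or Tra2b, Clk1 to Clk4, or a U2af gene. This gave 40 members of 21901 genes with a protein-coding transcript. They comprised 13 genes of the SR family (Tra2a and Tra2b counted with it), 20 hnRNP genes, 4 CLK genes and 3 U2AF genes.

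The study profiled RNA of the cytosolic fraction of C57BL/6J mouse bone-marrow-derived macrophages. All 3 libraries came from 1 condition. Before lysis, cells were kept for 12 h in 100 ng/ml Lipid A, the component of bacterial lipopolysaccharide sensed by TLR4, then washed and rested for 12 h, and finally exposed to 100 ng/ml Lipid A for 10 min. By their labels these are biological replicates 1, 2 and 3 with 1 donor identifier in common, so the spread between them may not be that between animals; age and sex are not given. No untreated or nuclear sample was analysed here, so no value below is an effect of Lipid A or a nuclear to cytosolic ratio.

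SR proteins bind exonic enhancers and mostly promote the use of nearby splice sites, whereas many hnRNPs bind silencers and block them. CLK kinases phosphorylate SR proteins and thereby release them from nuclear speckles, and U2AF recognises the end of the intron. Many of these genes are known to limit their own level. Their protein drives the inclusion of a poison exon, which brings a premature stop codon, or the splicing of an intron in the 3′ untranslated region, and the resulting mRNA is a target of nonsense-mediated decay (NMD), a cytoplasmic pathway coupled to translation. Others keep part of their transcripts with introns retained, and such RNAs are commonly held in the nucleus. A CLK transcript that skips an internal exon has lost the kinase domain by a frame shift.

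The annotation (GENCODE M21, build mm10) gave the members 395 transcripts. Of these 171 were protein coding, 58 were of the nonsense-mediated decay class, 122 were of the retained-intron class and 44 were of other classes. The NMD class was annotated in 28 members, the retained-intron class in 31, both in 26 and neither in 7. These names are annotation: a transcript of the NMD class is predicted to be a decay target, in 12 of the 58 with a stop codon that a coding transcript also has, and its decay was not measured.

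Premature stops brought by an extra exon are shown first, since here the transcript class can be read from the sequence. In 16 of the 58 NMD transcripts the stop codon lies in an exon absent from every coding transcript of the gene. The 5 of these with the highest mean share are given here, from the first annotated base of that exon to the stop codon, which is in capitals. For Srsf4-204 this base is the annotated start of the transcript. In Srsf4-203 the exon with the same end and stop codon begins upstream, at chr4:131884276, so the Srsf4-204 stretch may lack the exon's first bases. Srsf3-201 lies at chr17:29039454-29039487 (plus strand), Tra2a-202 at chr6:49252965-49253108 (minus), Tra2b-206 at chr16:22259181-22259261 (minus), Srsf4-204 at chr4:131884295-131884390 (plus) and Hnrnpll-203 at chr17:80044976-80045022 (minus), all exonic on mm10.
Srsf3-201: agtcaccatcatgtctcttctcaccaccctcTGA
Tra2a-202: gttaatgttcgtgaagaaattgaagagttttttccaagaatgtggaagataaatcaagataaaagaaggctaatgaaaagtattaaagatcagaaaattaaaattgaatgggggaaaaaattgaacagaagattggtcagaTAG
Tra2b-206: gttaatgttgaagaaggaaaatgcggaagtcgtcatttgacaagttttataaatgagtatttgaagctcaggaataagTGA
Srsf4-204: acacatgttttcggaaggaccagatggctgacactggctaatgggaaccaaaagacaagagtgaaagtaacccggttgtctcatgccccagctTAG
Hnrnpll-203: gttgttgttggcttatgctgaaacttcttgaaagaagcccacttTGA
The 2 paralogs Tra2a and Tra2b begin these exons with the same 9 bases and then diverge.

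In Clk1-210 the premature stop arises by skipping instead. The transcript lacks a coding exon of 91 bases (chr1:58420121-58420211, minus strand), and the next exon is then read for 21 bases (chr1:58419713-58419733) to a stop codon, in capitals.
Clk1-210: atgaaattgttgatacttTAG
Clk4-204 lacks a coding exon of 91 bases too (chr11:51273078-51273168, plus strand). Its annotated stop codon, ending at chr11:51271810, lies upstream of that exon, so the skip does not bring this stop. The longest intron kept in Clk1-204 (871 bases) and in Clk4-213 (1055 bases) borders the skipped exon of 91 bases in each gene.

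Retained introns had regular splice sites in the annotation. They were chosen as introns that coding transcripts splice out, so regular ends follow largely from the choice. Of the 122 retained-intron transcripts, 50 kept at least 1 whole intron of a coding transcript. The longest such intron could be read at both ends in 49, and all 49 began with GT and ended with AG. These are counts of transcripts, so 1 intron may be counted more than once, and introns beside untranslated regions were not left out. The first bases of 4 such introns, each preceded by 9 exon bases and with the GT in capitals, are given for the genes whose retained-intron values are described below. They lie at chr1:58421063-58421091 (Clk1-204, minus), chr11:51272014-51272042 (Clk4-213, plus), chr12:80947857-80947885 (Srsf5-212, plus) and chr17:80205242-80205270 (Srsf7-206, minus).
Clk1-204 start of intron: tcacacgggGTatgagtgccttttaaacg
Clk4-213 start of intron: tcgcattcgGTatgagtggtttgttttta
Srsf5-212 start of intron: agctggcagGTttgttgaaatacagtttt
Srsf7-206 start of intron: aagaagcagGTatttaattaatgaaggaa
The ends of the same introns, followed by 9 exon bases and with the AG in capitals, lie at chr1:58420203-58420241, chr11:51273048-51273086, chr12:80949065-80949103 and chr17:80204379-80204417.
Clk1-204 end of intron: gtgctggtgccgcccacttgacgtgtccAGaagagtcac
Clk4-213 end of intron: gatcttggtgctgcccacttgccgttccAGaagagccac
Srsf5-212 end of intron: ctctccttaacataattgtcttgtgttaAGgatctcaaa
Srsf7-206 end of intron: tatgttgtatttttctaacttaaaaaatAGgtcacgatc
Clk1 and Clk4 were alike at 17 of 29 positions at the start and at 22 of 39 at the end.

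The libraries held 31968675, 53094481 and 57070432 expected counts on named genes (replicates 1, 2 and 3), and the members took 0.398%, 0.393% and 0.398% of all counts. Expected counts are reads shared out among transcripts by a model, so they need not be whole. Macrophage markers (Cd68, Csf1r, Adgre1, Lyz2, Itgam) summed to 4142 to 4838 TPM (transcript abundance scaled for length and to a fixed total per library), while the summed T cell, B cell, neutrophil, erythroid and fibroblast markers each stayed at or under 0.1 TPM. Replicate 1 stood apart. Malat1, a nuclear RNA, was at 1333 TPM there against 118 and 152 TPM in replicates 2 and 3, Neat1, the scaffold RNA of paraspeckles, was at 66.0 against 13.9 and 17.6 TPM, and Xist, the RNA that coats the inactive X chromosome, was at 32.6 against 0.42 and 0.35 TPM. Genes with a coding transcript held 34.9% of TPM in replicate 1 against 28.1% in each of the others, and the median coding-class TPM over all genes was 1.14-fold higher there.

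Of the 40 members, 39 had a mean level of at least 1 TPM, 32 of at least 10 TPM and 8 of at least 50 TPM. The hnRNPs were the most abundant. Hnrnpf, a binder of G-rich RNA, led with 116 ± 7.28 TPM (SD, n = 3), followed by Hnrnpa2b1 with 112 ± 24.8, Hnrnpa3 with 89.9 ± 9.87, Hnrnpk, a binder of C-rich RNA, with 88.9 ± 14.3, and Hnrnpl, a binder of CA repeats, with 82.8 ± 6.04 TPM. The first 2, and the last 3, differed by less than their spread. Srsf2 was the highest of the SR family at 56.71, 46.67 and 50.04 TPM in replicates 1, 2 and 3. The lowest detected members were Hnrnph3 (3.23 ± 1.12 TPM), Clk2 (5.08 ± 1.23) and Hnrnpll (5.85 ± 1.71, SD, n = 3). Srsf12 was listed at 0 TPM with 0 counts in every library and was not detectable at this depth. The level was highest in replicate 1 for 36 of the 39 detected members, against 73.4% of all genes of at least 1 TPM.

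**Figure D1:**
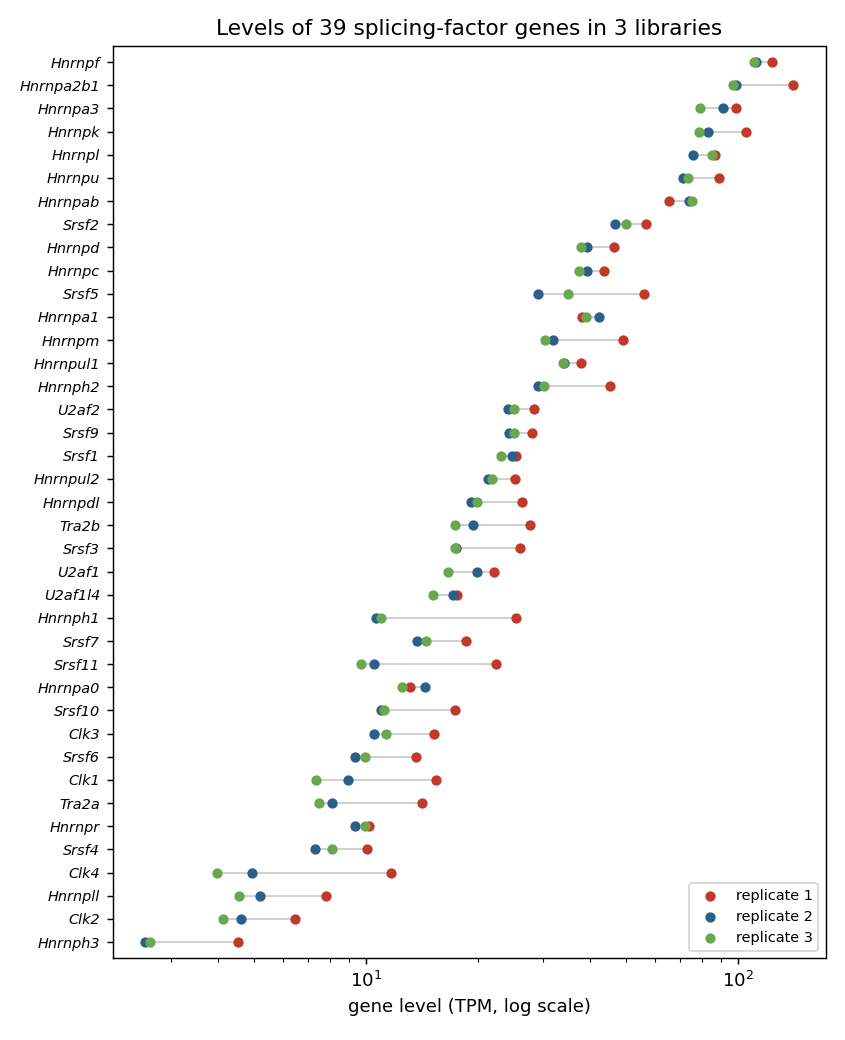
Gene level in TPM (log axis) of the 39 members of at least 1 TPM, 1 point per library and a grey line from the lowest to the highest. Hnrnpf and Hnrnpa2b1 sit at the top and Hnrnph3 at the bottom, and the replicate 1 point is the rightmost for 36 genes.

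How much of each gene's RNA was of the coding form? The share of a class is the sum of the deposited isoform percentages over its transcripts. Over the 39 detected members the median coding share was 85.1% (mean of 3 libraries per gene), against 97.0% over all 9425 genes of at least 1 TPM. The coding share was under 50% in 4 of 39 members (10.3%), against 4.99% of all genes, and at least 90% in 14 (35.9%), against 71.2% of all genes. The NMD class was annotated in 2919 and the retained-intron class in 5901 of all 9425 genes, against 28 and 31 of the 39 members. These coding shares therefore also depend on which classes are annotated. Over members with the class annotated, the median NMD share was 8.63% (28 members) and 2.42% over all 2919 such genes, and the median retained-intron share was 5.72% (31 members) and 2.55% over all 5901 such genes. Without replicate 1 the retained-intron medians fell to 1.52% for the members and 0.78% for all genes. The NMD medians were 17.6% and 3.86% with the read-based tables, and 4.99% and 1.17% as shares of expected counts. These medians are a description and were not tested.

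The 4 members with the lowest coding share were Hnrnpu, Hnrnpdl, Clk1 and Srsf2. Hnrnpu, also known as scaffold attachment factor A, had a coding share of 20.9%, 16.8% and 15.2% in replicates 1, 2 and 3. Hnrnpdl followed with 42.0%, 36.0% and 40.8%, Clk1 with 33.1%, 54.0% and 46.8%, and Srsf2 with 42.9%, 47.0% and 51.4%. At the other end, Hnrnpa0, Hnrnpab, Hnrnpf and Hnrnph2 had no annotated transcript of the NMD or retained-intron class and were at 100% coding or within 0.02 points of it.

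The NMD class was large in a few members and small in most. It held at least 10% of the gene's TPM in every library in 12 of 28 members (42.9%), against 24.8% of all 2497 genes with a value of this class. The 12 were Clk1, Clk2, Clk4, Hnrnpa1, Hnrnpd, Hnrnpdl, Hnrnpll, Hnrnpu, Srsf2, Srsf3, Srsf4 and Tra2b, so each of the SR, hnRNP and CLK families was represented. With the read-based tables the count was 14, against 27.3% of all genes.

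Within a gene, the NMD class was tested against the coding class on log2 ratios of TPM with 0.1 added, by limma with Benjamini-Hochberg adjustment over all 2919 genes tested. It was called higher in 1 of 28 members, Hnrnpu, against 3.46% of all genes, and lower in 24 of 28 (85.7%), against 91.7% of all genes. Clk1, Hnrnpdl and Srsf2 passed in neither direction. The members' counts were therefore near the background in both directions.

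Hnrnpu-206, of the NMD class, was at 62.3, 58.8 and 61.5 TPM in replicates 1, 2 and 3, against 18.6, 12.0 and 11.2 TPM for the coding class of the gene. The NMD class exceeded the coding class in every library, and the log2 ratio was 2.16 ± 0.21 (SE, adjusted p = 0.00054, limma). Its stop codon lies in an exon shared with coding transcripts, with 3 exon junctions after it and 183 bases to the last of them. Length enters this value: Hnrnpu-206 is 2844 bases long and the coding Hnrnpu-201 is 7640 bases long, so by expected counts the NMD class held 52.1%, 63.1% and 65.6% rather than 70.7%, 82.5% and 83.8% by TPM.

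Hnrnpdl, a paralog of Hnrnpd, carried 37.2%, 59.7% and 54.6% of its TPM on the NMD class, divided between Hnrnpdl-201 (6.04, 6.31 and 7.33 TPM) and Hnrnpdl-205 (3.77, 5.13 and 3.53 TPM). The log2 ratio of 0.32 ± 0.24 (SE) missed the threshold (adjusted p = 0.25, limma), and it passed without replicate 1 (0.57, adjusted p = 0.048). Srsf2 carried 43.0%, 51.5% and 46.9% on Srsf2-204, which lies at 24.4, 24.0 and 23.4 TPM. The NMD and coding classes of Srsf2 did not pass the test of a difference (log2 ratio 0.00 ± 0.16, SE). Srsf2-204 is only 620 bases long, and by expected counts the class held 15.4%, 22.5% and 18.8%.

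Hnrnpa1, the most studied hnRNP, was at 45.6%, 38.2% and 39.6% NMD. Most of it was Hnrnpa1-203, at 15.3, 15.9 and 15.1 TPM, whose stop codon is also annotated in a coding transcript and has 2 junctions and 90 bases after it. The class was lower than the coding class (log2 ratio -0.52 ± 0.18, SE, adjusted p = 0.043, limma). The call was lost without replicate 2 (adjusted p = 0.20) and without replicate 3 (adjusted p = 0.19). Hnrnpa1 has many processed pseudogenes, so its reads are among those a model must divide between near-identical copies.

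Hnrnpd, which encodes AUF1, a protein that binds AU-rich elements of cytokine mRNAs, is at chr5:99955935-99978938 (minus strand). Its level was 46.5, 39.3 and 37.9 TPM, and its NMD class was at 13.7, 13.2 and 13.5 TPM, or 29.5%, 33.5% and 35.7% of the gene. Hnrnpd-208 supplied most of this, at 12.6, 12.1 and 12.9 TPM. The class was lower than the coding class, by a log2 ratio of -1.02 ± 0.17 (SE, adjusted p = 0.0039, limma), and its TPM lay within a narrow range over the libraries. The retained-intron class of Hnrnpd was at 0.39, 0.12 and 0 TPM.

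The kinases of the CLK family had high NMD shares by TPM in 3 of 4 genes. Clk1, at chr1:58410189-58424066 (minus strand), was at 15.4, 9.0 and 7.3 TPM. Its NMD class, nearly all of it the exon-skipping Clk1-210 shown above, was at 4.23, 3.64 and 3.45 TPM, or 27.4%, 40.6% and 47.1% of the gene. Its coding class was at 5.11, 4.83 and 3.44 TPM, and the 2 classes did not pass the test of a difference (log2 ratio -0.22 ± 0.17, SE, adjusted p = 0.27, limma). Clk1-210 rested on 276, 492 and 511 expected counts, with a posterior SD of 29.04, 37.46 and 33.37 counts. Clk2 was at 30.3%, 37.0% and 26.8% NMD and Clk4 at 15.9%, 17.6% and 26.1%, while Clk3 was at 1.54%, 2.80% and 3.41%.

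In the SR family, alignment-based NMD shares outside Srsf2 were lower, though from reads the mean share of Srsf6 (46.1%) exceeded that of Srsf2 (41.4%). Srsf3, the smallest SR protein, was at 16.5%, 17.2% and 14.0%, all of it from the poison-exon transcript Srsf3-201 (4.29, 3.01 and 2.43 TPM). Srsf4 was at 16.4%, 12.2% and 11.3%, and Tra2b at 10.1%, 11.9% and 14.3%. Tra2a, at chr6:49243924-49264033 (minus strand), was at 14.2, 8.1 and 7.5 TPM, and its poison-exon transcript Tra2a-202 took 14.5%, 5.26% and 8.03%. Tra2a-202 had the largest ratio between libraries of the 5 poison-exon transcripts shown: at 2.06, 0.43 and 0.60 TPM it was about 4-fold higher in replicate 1 than in the mean of the others. Srsf5 and Srsf7 were under 2% in every library.

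By annotation, the stop codons of the main NMD transcripts sat far from the last junction. The class is itself a prediction of decay, so such distances follow largely from the choice of class. Of 16 NMD transcripts with a mean share of at least 5%, all 16 had more than 50 bases between the stop codon and the last exon junction (90 to 1015 bases), the distance commonly used to predict decay. Of these, 5 stopped in an exon absent from coding transcripts, 4 in an exon shared with them, 1 in a partly different exon, and 6 at a stop that a coding transcript also uses.

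The retained-intron class behaved otherwise between libraries. In Srsf5, at chr12:80945504-80950507 (plus strand), a gene at 56.0, 29.1 and 35.0 TPM, the class was at 11.9, 1.01 and 0.90 TPM, or 21.3%, 3.44% and 2.56% of the gene. Replicate 1 was 12.5-fold above the mean of the others, while the coding class was at 33.8, 22.5 and 28.0 TPM. Most of it was Srsf5-212, which keeps the intron of 1229 bases whose ends are shown above and had 1164, 221 and 210 expected counts.

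Srsf7, at chr17:80200080-80207307 (minus strand), was at 18.6, 13.7 and 14.6 TPM, and its retained-intron class at 2.22, 0.36 and 0.26 TPM (12.0%, 2.67% and 1.80%). For Clk1 the class was at 5.04, 0.37 and 0.40 TPM (32.7%, 4.13% and 5.48%), and for Tra2a at 2.13, 0.13 and 0.11 TPM (15.1%, 1.68% and 1.48%). In these 3 genes replicate 1 was above both others by 7.16-fold, 13.1-fold and 17.8-fold against their mean, and replicates 2 and 3 lay close together.

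The 8 highest mean retained-intron shares were those of Srsf11, Hnrnpm, Clk4, Clk3, Hnrnpll, Srsf1, Clk1 and Clk2. Srsf11 was at 62.6%, 24.1% and 13.0%, Hnrnpm at 37.7%, 17.3% and 22.5%, Clk4 at 39.5%, 24.7% and 12.7%, and Clk3 at 32.5%, 16.1% and 15.5%. Hnrnpll was at 34.7%, 4.39% and 4.49%, Srsf1 at 20.0%, 13.6% and 9.90%, and Clk2 at 29.6%, 5.92% and 5.41%. Over replicates 2 and 3 alone Hnrnpm (19.9%), Clk4 (18.7%) and Srsf11 (18.6%) led, and U2af1l4 (6.54%) stood above Clk2, Clk1 and Hnrnpll. Another gene, Gm43362, overlaps Srsf11 on the same strand. Only Clk3, Clk4, Hnrnpm and Srsf11 held at least 10% in every library, 4 of 31 members (12.9%) against 12% of all 5647 genes with a value of this class. Hnrnpa2b1, among the most abundant members, was at 21.2%, 1.88% and 2.80%.

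**Figure D2:**
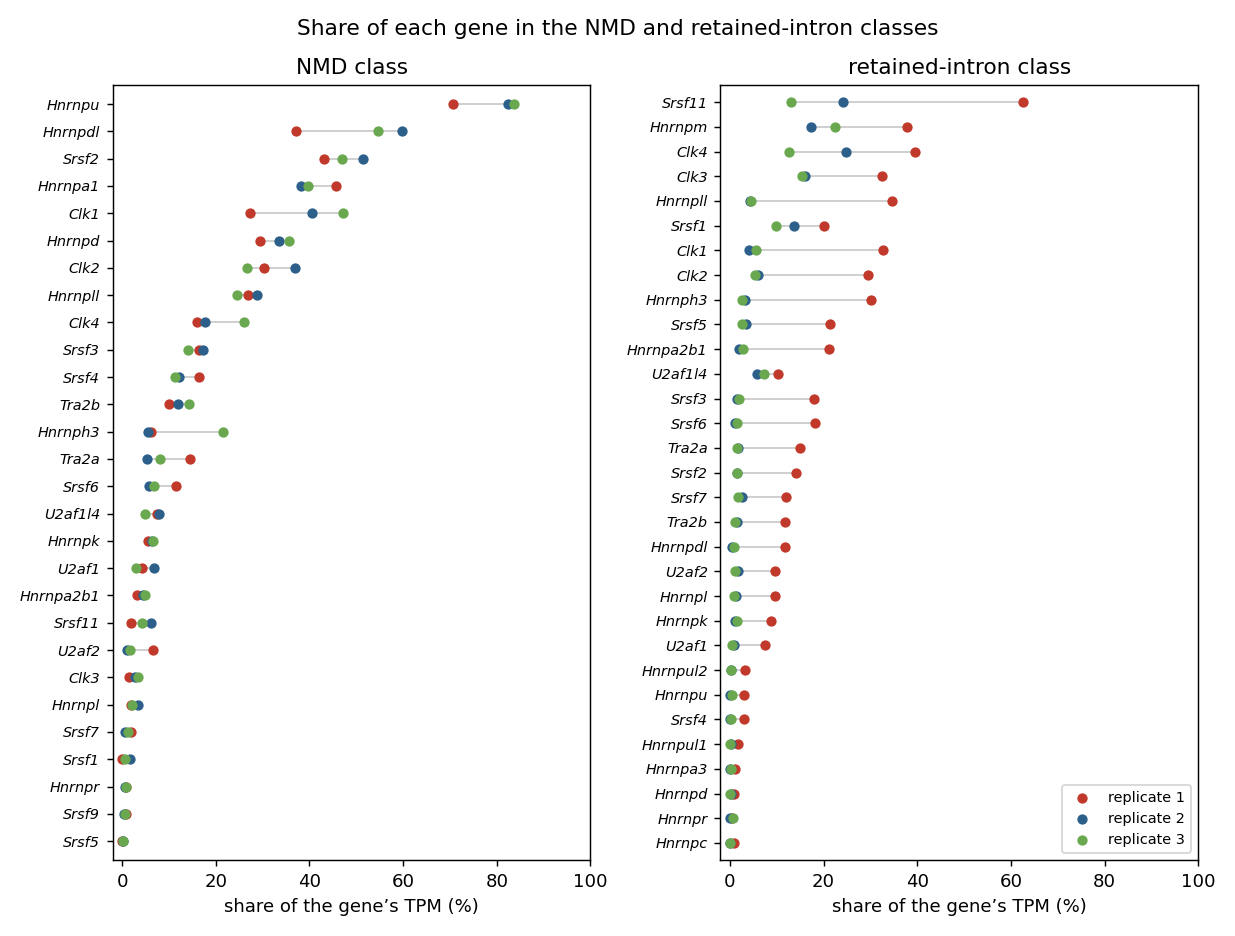
Share of the gene's TPM (%) on NMD transcripts (left, 28 members) and on retained-intron transcripts (right, 31 members), 1 point per library. On the left the order of the libraries varies between genes, and on the right replicate 1 is the highest point in 30 of 31 genes.

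The retained-intron share was highest in replicate 1 in 30 of 31 members (96.8%), the exception being Hnrnpr. The same held for 85.8% of all 5647 genes, so this direction was shared by most genes with the class. With the read-based tables all 31 members were highest in replicate 1, against 92.5% of all genes. The NMD share was highest in replicate 1 in 8 of 28 members (28.6%), against 39.6% of all 2497 genes. The high Malat1, Neat1 and Xist levels given above moved with the retained-intron class across the same libraries, and their part in the result was not tested.

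The TPM of each class separates the patterns. Summed over the 40 members, the retained-intron class was at 156, 24.0 and 23.4 TPM, the NMD class at 168, 156 and 154 TPM, and the coding class at 1148, 1022 and 1012 TPM. Per gene, the median log2 difference of replicate 1 from the mean of the others was 2.81 for the retained-intron class of 31 members, 0.18 for the NMD class of 28 and 0.18 for the coding class of 39, each on TPM with 0.1 added. Over all genes the medians were 1.43, 0.07 and 0.19. Retained-intron TPM was at least 5-fold higher in replicate 1 in 25 of the 30 members with a value above 0 in the others (83.3%), against 55.5% of all genes with such a value, with a range of 1.33-fold (Hnrnpr) to 31.0-fold (Srsf4). The smallest ratios after Hnrnpr were those of U2af1l4 (1.74-fold), Srsf1 (1.80-fold), Clk3 (2.88-fold) and Hnrnpm (3.01-fold). NMD TPM stayed within 1.5-fold either way in 17 of 28 members (60.7%), against 36.2% of all genes, and the largest ratio was that of U2af2 (5.84-fold). The limits of 5-fold and 1.5-fold were not among the planned settings, and no test was made. All genes here means those of at least 1 TPM, which were not matched to the members in level.

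**Figure D3:**
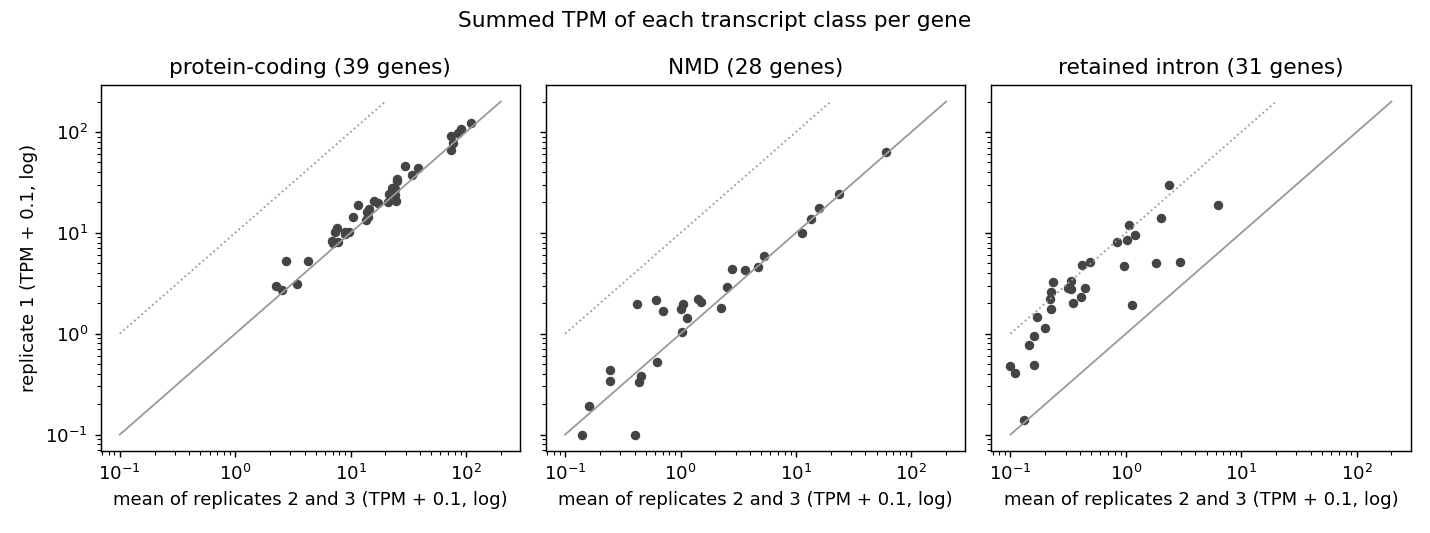
Summed TPM per gene (0.1 added, log axes) in replicate 1 against the mean of replicates 2 and 3, for the coding, NMD and retained-intron classes. The solid line marks equal values and the dotted line a 10-fold higher value in replicate 1: coding and NMD points lie mostly along the solid line and most retained-intron points lie near the dotted one.

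Retained-intron transcripts differ in how much sequence sets them apart from the coding ones. To keep replicate 1 out of the choice, those with at least 50 expected counts over replicates 2 and 3 were taken, 23 in all. Of these, 18 had at least 25% of their bases outside the exons of coding transcripts and had a median ratio of replicate 1 to the mean of the others of 11.5-fold (lowest 4-fold, highest 22.1-fold). The other 5 had a median of 2.57-fold (lowest 1.52-fold, highest 20.3-fold). The division at 25% was chosen after the values were seen, and no test was made. Hnrnpm-213 (591 bases, 19.5% outside, 15.8, 5.45 and 6.79 TPM) and Srsf1-203 (759 bases, none outside, 4.69, 3.33 and 2.24 TPM) belong to the smaller set, as do Hnrnpa2b1-208 and Srsf11-213, whose ratios were 14.3-fold and 20.3-fold. For Srsf1-203 the posterior SD was 26.2 counts of 112 in replicate 1.

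Whether these shares differed between libraries beyond counting error was tested by a chi-square test of class against other expected counts, with Benjamini-Hochberg adjustment. The retained-intron share differed in 28 of 28 members tested, against 90% of 4037 genes. Without replicate 1 it differed between replicates 2 and 3 in 8 of 25 (32%), against 20.8% of genes. The NMD share differed in 18 of 26, against 70.7% of 1855 genes. Expected counts carry assignment error that this test leaves out, so it calls differences between these libraries too readily, and in the fits to all 3 libraries the members' shares were near the background.

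Within a gene, the retained-intron class was called lower than the coding class in 29 of 31 members (93.5%), against 93.7% of 5901 genes, and higher in 0 of 31, against 1.19% (limma, as above). At an unadjusted p under 0.05 it was also higher in 0 members. Clk4 and Srsf11 did not pass. The log2 ratio was -3.55 ± 0.75 for Srsf5, -4.32 ± 0.60 for Srsf7, -4.09 ± 0.70 for Tra2a and -6.96 ± 0.48 for Hnrnpd (SE, adjusted p = 0.0066, 0.0014, 0.0030 and 0.00028). For Clk1 it was -2.08 ± 0.75 (SE, adjusted p = 0.044, limma), and the call was lost with the read-based tables (adjusted p = 0.057), without replicate 2 (adjusted p = 0.14) and without replicate 3 (adjusted p = 0.087).

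Against the NMD class, the retained-intron class was higher in Clk3, Srsf1 and Srsf5, 3 of 26 members (11.5%) against 11.9% of 2369 genes. It was lower in Hnrnpd, Hnrnpdl, Hnrnpu, Srsf2 and Srsf4, 5 of 26 (19.2%) against 15% of genes. The libraries used changed these calls. Without replicate 1, 12 members were called lower (46.2%, against 25.1% of genes) and 4 higher (15.4%, against 12.3%). Without replicate 2 or without replicate 3 limma called 0 of 2373 genes either way, so the 0 members called there say nothing particular to the members. At an unadjusted p under 0.05, 5 members were lower and 4 higher in each of these 2 settings.

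The deposited alignment-based and read-based tables gave like shares for most members and different ones for a few. The mean NMD share differed by 10 points or more in 4 members. Srsf6 was at 11.5%, 5.65% and 6.82% by alignment and at 35.9%, 52.4% and 49.995% from reads, and its log2 ratio of NMD to coding moved from -3.30 to 0.03. Hnrnpll moved from a mean of 26.7% to 41.7%, Srsf3 from 15.9% to 26.3% and Tra2a from 9.27% to 20.96%. For the retained-intron share only Hnrnpm differed by 10 points or more, at 29.8%, 2.2% and 3.5% from reads. Hnrnpu, by contrast, was at 62.0%, 84.9% and 85.0% NMD from reads.

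**Figure D4:**
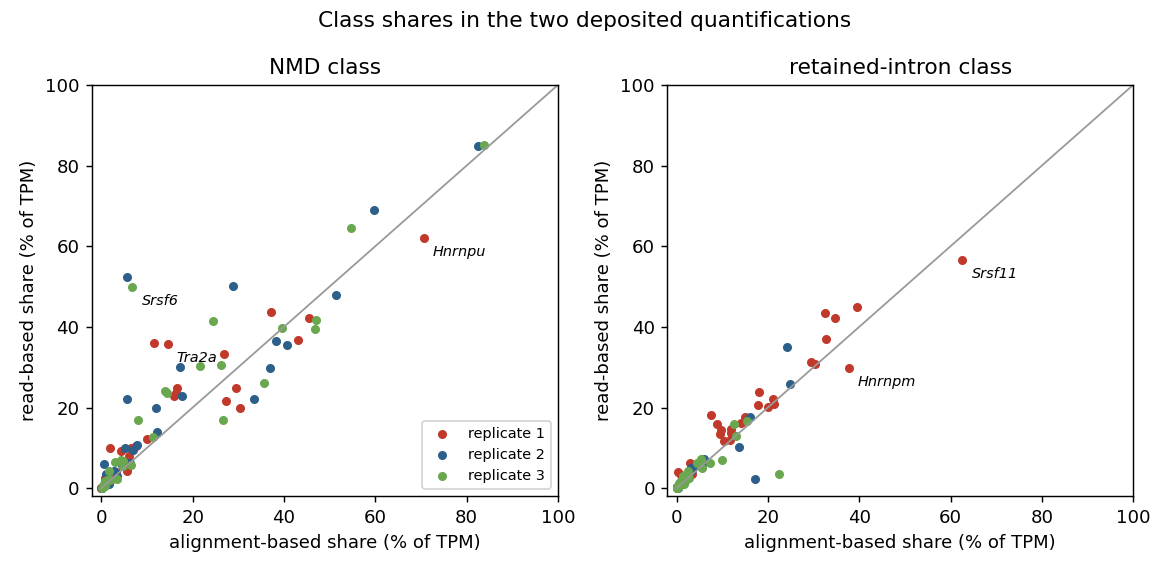
Class shares (% of the gene's TPM) from the read-based table against those from the alignment-based table, 1 point per member and library, with the line of equal shares. Srsf6 and Tra2a lie above the line on the left, Hnrnpu in replicate 1 lies a little below it, and Hnrnpm in replicates 2 and 3 lies near 0 on the read-based axis on the right.

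Other genes of the splicing and decay machinery gave a setting for these values. Of 30 other splicing regulators, all at 1 TPM or more, the NMD class was lower than the coding class in 23 of 24 tested and higher in 1, Prpf4b, a kinase of the spliceosome, with 59.3%, 76.0% and 73.8% of its TPM on NMD transcripts (limma, as above). Their median shares were 7.07% NMD and 6.28% retained intron. Tardbp, which encodes TDP-43 and is known to regulate itself, was at 37.8%, 42.1% and 37.9% NMD and Rbm39 at 21.48%, 29.04% and 28.79%. Celf1 has no annotated transcript of either class. The retained-intron share was highest in replicate 1 in 25 of 27.

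All 16 genes of NMD and the exon junction complex, which marks spliced junctions, were at 1 TPM or more. The NMD class was annotated and tested in only 4 of them and was lower than the coding class in all 4, and the retained-intron class was lower in 9 of 9. Smg6, the endonuclease of the pathway, had the highest summed share of both classes at a mean of 17.7%, followed by Smg5 (11.4%) and Magohb (11.1%). Upf1, the central helicase, has no annotated transcript of either class. The retained-intron share was highest in replicate 1 in 9 of 9.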

How the data were processed

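Cytosolic, ribosomal-RNA-depleted total RNA was sequenced in 3 libraries of 1 group. The authors deposited, per the file headers, alignment-based transcript and gene tables with expected counts, TPM and isoform percent, and read-based transcript tables with estimated counts and TPM. Build mm10 and annotation M21 are named in notes deposited with the tables; no source used here names the quantifiers or the strand setting. Rows that name no gene, chiefly a phage control, held 0.435%, 0.134% and 0.0823% of expected counts (replicates 1, 2 and 3). No pair of libraries was a duplicate.

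Shares were sums of isoform percent per class. Class ratios were log2((TPM + 0.1)/(TPM + 0.1)) within a library, for genes of at least 1 TPM with both classes annotated, and were fitted with an intercept in limma 3.58.1 (R 4.3.3), two-sided, adjusted p under 0.05. Chi-square tests (scipy) used rounded expected counts with expected cells of at least 5. On simulated data for the NMD to coding ratio (2919 genes), limma called 100.0% of 4-fold changes, 78.7% of 2-fold increases and 60.4% of 2-fold decreases. In the simulation 2719 genes had counts split evenly between the classes, and no assignment error was added. Most real ratios are far from even, so these rates do not carry over to the real test. Structures came from the M21 annotation and transcript sequences. Every member may be named; 5 genes (Srsf5, Srsf7, Clk1, Tra2a, Hnrnpd) and those with the highest or lowest shares and levels are given in full. Members and lists were chosen with earlier results of these data known. Another gene overlaps 7 members on the opposite strand and 2 (Srsf11, Srsf4) on the same strand, so reads of the pair may be mixed. Intervals and SDs cover these libraries only.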

Additional observations from a re-analysis of the deposited data

How the results depend on the processing

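Only 1 condition with 3 libraries was analysed here, and library 1 is also the shallowest, so its retained-intron values and its depth cannot be told apart. Transcript values rest on a model that divides shared reads. The alternatives were other tables, pseudocounts, filters and the removal of single libraries. With read-based TPM, the NMD class was called higher than coding in 2 of 28 members, against 104 of 2649 genes. The log2 ratio of Srsf6 turned to 0.029 and that of Hnrnpll to 0.10. Retained intron was above NMD in 1 of 26 members and 142 of 2174 genes, and below in 5 members and 219 genes. The median NMD share was 17.6%. It was 4.99% by expected counts. From a minimum of 5 TPM, 59 of 1919 genes had NMD and 41 of 4063 had retained intron above coding. With no filter 106 of 7864 genes had retained intron above coding. In that setting 0 members and 237 of 2986 genes had it above NMD, and 3 members and 230 genes below. With a pseudocount of 0.01 retained intron was above NMD in 0 members and 301 of 2369 genes, and below in 3 members and 242 genes. With a pseudocount of 1 it was above in 1 member and 198 of 2369 genes. With expected cells of at least 20, 2035 of 2254 genes and 22 of 22 members differed in retained-intron share. Leaving out 1 library gave 1 to 2 of 28 members and 82 to 97 genes (2887 to 2925 tested) with NMD above coding. Retained intron was then above coding in 41 to 86 genes (5838 to 5923 tested). It was above NMD in 0 to 4 of 26 members and 0 to 289 genes (2345 to 2373 tested), and below in 0 to 12 members and 0 to 588 genes. The retained-intron share then differed in 8 to 27 members (25 to 28 tested) and 747 to 3737 genes (3583 to 4355 tested). The NMD share differed in 820 to 1042 genes (1849 to 1982 tested), and the median NMD share was 6.56% to 10.2%. The number of genes tested changed with several settings, and the cause of the changes was not tested.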

Other observations

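A further class, annotated mainly as processed transcripts, was sizeable in 3 members. Hnrnph1, a binder of G-rich RNA and a paralog of Hnrnpf, had neither NMD nor retained-intron transcripts in the annotation, and this class took 68.7%, 33.8% and 38.9% of its TPM in replicates 1, 2 and 3. Its transcript Hnrnph1-204, of 4002 bases, was at 3.55, 0.18 and 0.15 TPM, while Hnrnph1-215, of 870 bases, was at 1.69, 1.53 and 1.63 TPM. Srsf5 held 18.5%, 19.3% and 17.4% in the class and Srsf10 17.2%, 5.90% and 7.16%. No test was made on these shares.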
